A study of Mus musculus with 12 samples.

Results

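The regenerating (Reg) genes and the trefoil factor (Tff) genes were followed over the islets of 4 genotypes, with 6 Reg genes (Reg1, Reg2, Reg3a, Reg3b, Reg3d and Reg3g) and 3 trefoil genes (Tff1, Tff2 and Tff3) among the 17305 genes that have a named probe on the array. The genes were chosen by name with earlier results of these arrays known, and probes were assigned by the RefSeq accession that the scanner files carry. Each of the 9 genes has 1 probe. Total RNA of pancreatic islets was hybridised to 12 Agilent whole mouse genome arrays in 1 colour, with 3 arrays per genotype. WT mice carry no mutation, PPARg2KO mice lack the PPARγ2 isoform of the nuclear receptor PPARγ, ob/ob mice (OB in the labels) lack leptin and are obese, and POKO mice (DKO in the labels) lack both. All groups were on a mixed C57BL/6 x Sv129 background, ate a chow diet and were 4 weeks old per the labels. Each array holds a pool of islets of several female mice, the loss of both genes is germline and so touches every cell type, and the islets were cultured overnight before lysis. The 3 arrays of a genotype are pools, so that the spread between them understates the spread between mice.

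Reg genes encode small secreted proteins with a C-type lectin fold. In the pancreas they are made mainly by the exocrine acinar cells, they are strongly induced by inflammation and injury through gp130 cytokines and STAT3, and they are named for their link with islet regeneration. Trefoil factors are small secreted peptides with a cysteine-rich, three-looped domain, which mucus-secreting epithelia release together with mucins and which promote the closure of epithelial wounds. Reg and trefoil genes are therefore read in islet preparations as secretory epithelial genes, and trefoil peptides have also been described in endocrine cells.

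In these islets Tff1 and Tff3 had a wider range of normalized log2 signal over the 12 arrays than any Reg gene. Both are dim, and for dim probes this range depends on the background correction. With another correction (normexp) the log2 difference ob/ob minus WT was -0.42 for Tff3, smaller than the -0.87 of Reg3g. Tff1 and Tff3 were lowest in ob/ob, Tff2 was lower in both obese genotypes than in WT, and Reg3a was higher in POKO than in every other genotype. Reg1 and Reg2, at the bright end of the scale, stayed within a narrow range. These levels over the genotypes are what drew attention to the genes, so that they are given as a description and without a test. Fewer cells of a type and less RNA per cell cannot be told apart in such bulk samples.

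The Reg genes lie side by side on mouse chromosome 6 in the order Reg3b, Reg3d, Reg3a, Reg2, Reg1 and Reg3g, and the trefoil genes on chromosome 17 in the order Tff3, Tff2 and Tff1. The 250 bases before the transcription start are printed for 5 Reg genes because the normalized signals of several Reg genes varied together, as given further on with its limits. Reg1 and Reg2 are shown as the pair on the narrow range, Reg3b and Reg3g as the pair of promoters most alike, and Reg3a as the Reg gene with the largest difference between POKO and WT. The sequences are from RefSeq (GRCm38.p6), 5′ to 3′ on the strand of the gene: Reg1 at chr6:78425733-78425982 (plus), Reg2 at chr6:78404905-78405154 (plus), Reg3a at chr6:78380459-78380708 (plus), Reg3b at chr6:78370635-78370884 (plus) and Reg3g at chr6:78468875-78469124 (minus). Capitals mark the letters of a TATA box (TATAAA) and of a STAT-type motif (TTCNNNGAA), searched on both strands.
Reg1: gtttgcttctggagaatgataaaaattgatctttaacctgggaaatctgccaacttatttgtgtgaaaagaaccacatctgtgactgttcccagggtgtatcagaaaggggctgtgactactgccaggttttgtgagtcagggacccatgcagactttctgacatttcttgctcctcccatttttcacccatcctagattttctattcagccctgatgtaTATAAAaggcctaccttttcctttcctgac
Reg2: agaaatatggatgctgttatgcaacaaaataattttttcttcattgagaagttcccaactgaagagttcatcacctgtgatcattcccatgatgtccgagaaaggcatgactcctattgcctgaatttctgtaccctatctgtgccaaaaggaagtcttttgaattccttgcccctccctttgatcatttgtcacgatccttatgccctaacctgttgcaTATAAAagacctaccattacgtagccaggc
Reg3a: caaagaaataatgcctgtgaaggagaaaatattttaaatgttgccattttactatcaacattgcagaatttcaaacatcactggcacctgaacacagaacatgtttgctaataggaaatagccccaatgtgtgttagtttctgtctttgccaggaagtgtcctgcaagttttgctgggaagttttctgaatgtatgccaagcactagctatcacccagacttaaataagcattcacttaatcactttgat
Reg3b: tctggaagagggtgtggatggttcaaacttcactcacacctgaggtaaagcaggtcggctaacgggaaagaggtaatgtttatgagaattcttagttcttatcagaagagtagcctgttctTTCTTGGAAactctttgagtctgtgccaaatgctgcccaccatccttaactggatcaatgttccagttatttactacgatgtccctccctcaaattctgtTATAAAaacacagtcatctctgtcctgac
Reg3g: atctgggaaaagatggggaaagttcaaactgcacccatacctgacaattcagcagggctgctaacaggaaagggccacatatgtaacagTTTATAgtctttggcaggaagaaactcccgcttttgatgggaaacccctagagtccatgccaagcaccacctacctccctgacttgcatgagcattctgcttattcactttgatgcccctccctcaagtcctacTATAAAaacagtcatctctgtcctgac

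The TATAAA letters stood in 4 of the 6 Reg promoters, against 12.4% of 32851 mouse promoters of the same length. They began 30 bases before the start in Reg1 and Reg2, 29 bases before it in Reg3b and 27 bases before it in Reg3g, which holds them a second time on the other strand. TTCNNNGAA was found in 2 of the 6 (Reg3b, 129 bases before the start, and Reg3d) against 7.02% of promoters. CACCTG, an E-box of the kind that acinar factors bind, was in 4 of the 6 against 17.2%, and AGGTCA, the half-site of nuclear receptors such as PPARγ, was in 1 of the 6 (Reg3d) against 14.0%. After global alignment Reg3b and Reg3g had 68.4% identical positions and Reg1 and Reg2 had 56.9%. The other 13 pairs of Reg promoters had 45.1% to 52.7%. These matches describe the letters and say nothing of binding.

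The arrays were checked first. The scanner software called 54.3 to 64.9% of the spots of an array well above background, and all 9 measured islet endocrine markers (Ins1, Ins2, Gcg, Sst, Ppy, Pdx1, Slc2a2, Chga and Pcsk1) were well above background on all 12 arrays. The Pparg probe read 8.85 to 8.98 in WT and 8.54 to 9.77 in ob/ob (normalized log2 signal), against 6.60 to 7.44 in PPARg2KO and 6.41 to 7.14 in POKO. Lep, which islets hardly express, was well above background on 2 of the 12 arrays and so checks nothing. Each genotype sat at 1 fixed position of every slide, so that position and genotype cannot be told apart, while each of the 3 slides held all 4 genotypes. Values below are quantile-normalized log2 signals, listed in the order of slides 1, 2 and 3, and a difference of 1 on this scale is a doubling of the signal. A probe's brightness also depends on its sequence, so that levels are compared between arrays and not between genes.

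**Figure D1:**
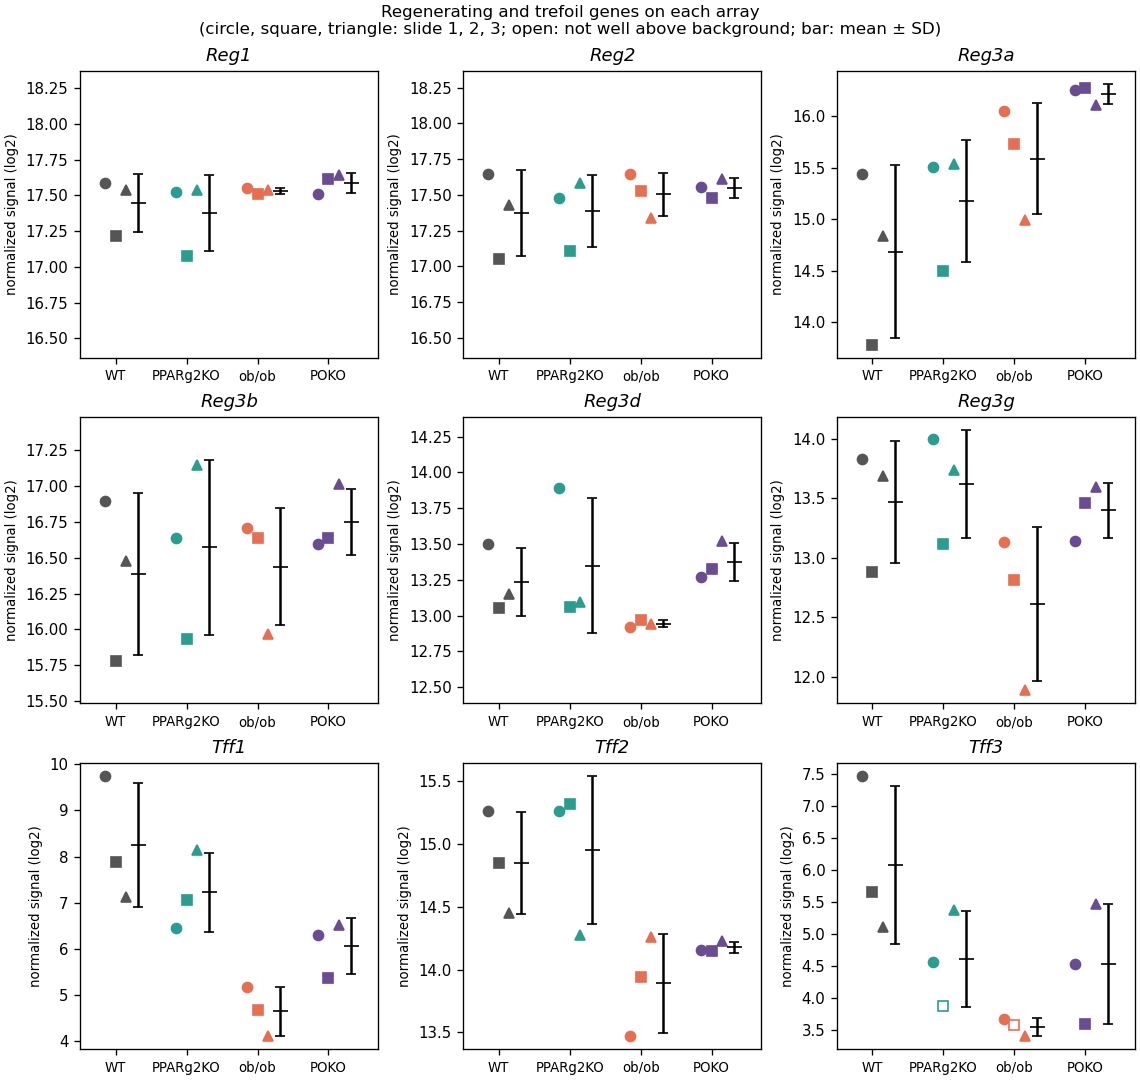
Normalized log2 signal of the 9 genes on each of the 12 arrays, by genotype, with the mean ± SD (n = 3) beside the points. Open symbols are arrays on which the probe was not well above background (2 arrays, both for Tff3). Tff1 sits lowest in ob/ob, from 4.11 to 5.18, below all other arrays, and Reg3a sits highest in POKO, from 16.11 to 16.28, above all others. Panels differ in their vertical scale.

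Tff1, the gastric surface peptide that is stored with the mucin Muc5ac, read 9.74, 7.89 and 7.13 in WT. In PPARg2KO it was at 6.46, 7.06 and 8.15, in ob/ob at 5.18, 4.67 and 4.11, and in POKO at 6.29, 5.37 and 6.51. The ob/ob arrays were below all the others, the POKO arrays lay between ob/ob and WT without overlap with either, and PPARg2KO overlapped with both WT and POKO. The means were 8.25 ± 1.34 in WT, 7.22 ± 0.86 in PPARg2KO, 6.06 ± 0.61 in POKO and 4.65 ± 0.53 in ob/ob (SD, n = 3). Over the 12 arrays the highest Tff1 signal, on the first WT array, was 49.7-fold the lowest. On this scale it was the widest range among the 9 genes.

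Against WT, Tff1 in ob/ob differed by -3.60 ± 0.68 (fitted log2 difference ± SE), a 12.1-fold lower signal. Within the slides the differences ob/ob minus WT were -4.57, -3.21 and -3.02, so that the direction was the same on each. In POKO the difference from WT was -2.20 ± 0.68, and within the slides -3.45, -2.52 and -0.62. In PPARg2KO it was -1.03 ± 0.68, with slides that went both ways (-3.29, -0.82 and 1.02). POKO was above ob/ob on all 3 slides, by 1.12, 0.70 and 2.41. The step from ob/ob to POKO minus the step from WT to PPARg2KO was 2.44 ± 0.96 for Tff1 and 2.45 ± 0.93 for Tff3 (log2 ± SE), and 0.03 to 0.64 for the other 7 genes. With normexp, another background correction, it was 0.80 ± 0.48 for Tff1 and 0.42 ± 0.21 for Tff3. Over all probes none passed the criteria for this contrast by limma, and 5721 of 41174 had an unadjusted p under 0.05. The scanner's own processed signals behind these values are small, 24.2 to 36.9 units in ob/ob and 132 to 760 units in WT, yet the probe was well above background on all 12 arrays.

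Tff3, the peptide of intestinal goblet cells, is near the detection limit in these islets. It read 7.47, 5.66 and 5.12 in WT, 4.56, 3.88 and 5.38 in PPARg2KO, 3.68, 3.58 and 3.40 in ob/ob, and 4.54, 3.59 and 5.47 in POKO. The second PPARg2KO and the second ob/ob array were not well above background. The ob/ob arrays lay below all arrays of WT and PPARg2KO, and they overlapped with POKO. Before normalization the signals were 13.9 to 15.3 units in ob/ob, 12.1 to 42.0 in PPARg2KO, 13.1 to 48.2 in POKO and 31.7 to 143 in WT. On that scale ob/ob lay below WT and overlapped with PPARg2KO and POKO. Relative to WT, the log2 difference of Tff3 was -2.53 ± 0.66 in ob/ob, -1.55 ± 0.66 in POKO and -1.47 ± 0.66 in PPARg2KO, with slide differences in ob/ob of -3.79, -2.08 and -1.72. On the third slide POKO and PPARg2KO were above WT, by 0.35 and 0.26.

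Tff2 is the peptide of gastric mucous neck cells and is also made in the pancreas. Its probe read 15.26, 14.85 and 14.45 in WT, 15.26, 15.32 and 14.27 in PPARg2KO, 13.47, 13.94 and 14.26 in ob/ob, and 14.15, 14.15 and 14.23 in POKO. All ob/ob and POKO arrays lay below all arrays of the lean genotypes. The gap was narrow, since the lowest lean array (14.27) and the highest obese array (14.26) differed by only 0.0152. Against WT the difference was -0.96 ± 0.32 in ob/ob and -0.67 ± 0.32 in POKO, and PPARg2KO differed from WT by 0.10 ± 0.32. On the third slide the other 3 genotypes were within 0.22 of WT, so that the difference came from the first and second slides (-1.79 and -0.90 in ob/ob).

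Reg3a, which belongs to the pancreatitis-associated branch of the family, went the other way. It read 15.44, 13.78 and 14.83 in WT, 15.51, 14.49 and 15.53 in PPARg2KO, 16.05, 15.73 and 14.99 in ob/ob, and 16.26, 16.28 and 16.11 in POKO. The POKO arrays were above all others, and the other 3 genotypes overlapped. POKO exceeded WT by 1.53 ± 0.44, a 2.89-fold higher signal, with slide differences of 0.82, 2.50 and 1.27. It also exceeded PPARg2KO by 1.04 ± 0.44 and ob/ob by 0.63 ± 0.44, in each case on all 3 slides. The second WT array was the lowest of the 12 and carried much of the difference from WT, which was 1.08 without it.

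Reg3g, the bactericidal lectin of the gut that targets Gram-positive bacteria, was lowest in ob/ob. It read 13.83, 12.88 and 13.69 in WT, 14.00, 13.12 and 13.74 in PPARg2KO, 13.13, 12.81 and 11.89 in ob/ob, and 13.14, 13.46 and 13.59 in POKO. The ob/ob arrays overlapped with WT and PPARg2KO and lay just below POKO, by a gap of 0.01. Against WT the difference in ob/ob was -0.86 ± 0.37, with slides at -0.70, -0.07 and -1.80. It was -0.50 without the third ob/ob array.

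Reg3d, a further Reg3 member of the pancreas, read 12.92, 12.97 and 12.94 in ob/ob, 13.50, 13.05 and 13.15 in WT, 13.89, 13.06 and 13.09 in PPARg2KO, and 13.27, 13.33 and 13.52 in POKO. After normalization the ob/ob arrays were the lowest of the 12 and lay within 0.05 of each other, but the difference from WT was small at -0.29 ± 0.21. Before normalization the ob/ob arrays read 6870.7, 9302.5 and 8520.5 units and overlapped with WT (8531.6 to 11103 units). POKO exceeded ob/ob by 0.43 ± 0.21, on all 3 slides.

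Reg3b, the pancreatitis-associated protein of acinar cells, showed no order of the genotypes beyond their spread. It read 16.90, 15.78 and 16.48 in WT, 16.64, 15.93 and 17.15 in PPARg2KO, 16.71, 16.64 and 15.97 in ob/ob, and 16.59, 16.64 and 17.01 in POKO. All 4 genotypes overlapped, and the differences from WT were 0.05, 0.36 and 0.19 in ob/ob, POKO and PPARg2KO, each with an SE of 0.37.

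Reg1 and Reg2, the classical islet regenerating genes and products of acinar cells, had the narrowest ranges. Reg1 read from 17.07 to 17.64 over the 12 arrays and Reg2 from 17.05 to 17.64, a 1.48-fold and a 1.51-fold range. Their means by genotype differed by at most 0.21. After normalization the second WT and the second PPARg2KO arrays were the lowest for both genes. Both probes ranked between 28 and 40 among the 41174 probes of every array, and none of their spots was saturated. Quantile normalization gives the same set of values to every array and sets them by rank. The value of so bright a probe thus depends on the other bright probes. Before normalization the signals were 168130 to 200980 units for Reg1 and 159880 to 203690 units for Reg2. The second PPARg2KO array then read 194790 and 198360 units, above all WT arrays. With a plain 75th percentile shift in place of quantiles the differences ob/ob minus WT were -0.39 for Reg1 and -0.30 for Reg2, against 0.09 and 0.13 with quantiles, so that no direction is given for these genes.

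**Figure D2:**
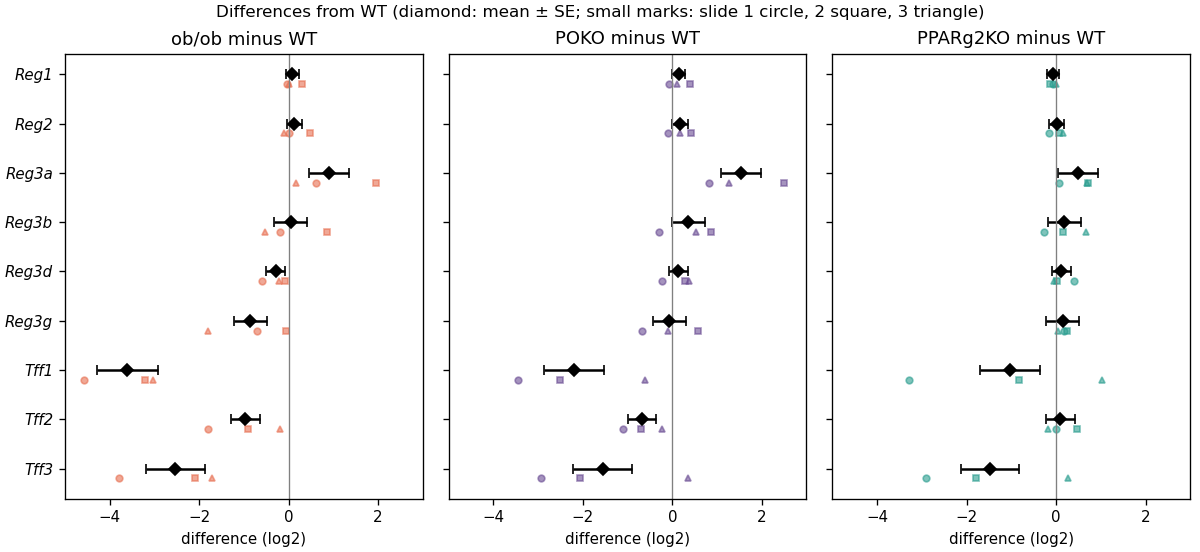
Fitted log2 differences from WT of the 9 genes in ob/ob, POKO and PPARg2KO, with the SE (diamonds and bars), above the differences within each of the 3 slides (small marks). Tff1 and Tff3 lie furthest below 0 in ob/ob, at -3.60 and -2.53, and Reg3a furthest above 0 in POKO, at 1.53. The 3 comparisons share the WT arrays.

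At the study's criteria (adjusted p of at most 0.05 by limma and an absolute log2 difference of at least 1), 2 of the 9 genes were past the threshold in ob/ob vs. WT, Tff1 and Tff3, both lower. This count describes values that led to the choice of the genes and nothing is read from it. Of all 41174 probes 5.47% were past the same criteria in that comparison, 3.56% as higher and 1.91% as lower, and 31.1% had an unadjusted p under 0.05, among them 4 of the 9 genes. The Tff1 call was lost when the first or second WT array or the second or the third ob/ob array was left out, with differences of -2.84, -3.77, -3.61 and -3.35. Tff3 kept its call in only 3 of the 12 fits that leave out an array, and its difference ranged from -3.01 to -1.83 over the 12.

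None of the 9 genes was past the criteria in the other comparisons. In POKO vs. WT 0.172% of all probes were, and 3 of the 9 genes had an unadjusted p under 0.05 against 16.4% of probes. In PPARg2KO vs. WT 0% of probes were past the criteria, and none of the 9 genes had an unadjusted p under 0.05, against 9.37% of probes. The share of probes past the criteria was 0.00243% in POKO vs. ob/ob, where 9.28% had an unadjusted p under 0.05 and none of the 9 genes did. It was 0.00486% in POKO vs. PPARg2KO, with 2 of the 9 genes and 11.1% of probes under 0.05 unadjusted. In ob/ob vs. PPARg2KO it was likewise 0.00486%, with 3 of the 9 genes and 19.3% of probes under 0.05 unadjusted. Among the alternatives run, only weights for single arrays brought Reg3a and Tff1 past the criteria in POKO vs. WT, and only without the third PPARg2KO array did Tff2 pass them in ob/ob vs. PPARg2KO.

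The median difference of the 3 trefoil genes was -2.53 for ob/ob and -1.55 for POKO, each minus WT, beside -0.08 for all probes in both comparisons. For the 6 Reg genes it was 0.07 and 0.16, and it turned to -0.345 and -0.05 with 75th percentile scaling, so that no direction is given for the Reg genes as a group. The trefoil medians were -2.30 and -1.38 with that scaling, and nearer 0 with normexp (-0.65 in POKO). In POKO vs. ob/ob all 9 genes were higher in POKO, with a median difference of 0.43 beside 0.01 for all probes. For Reg1, Reg2, Reg3b and Tff2 this direction did not hold on every slide. Of the cell-type markers given further on, 20 of 24 acinar, 11 of 14 duct and 0 of 9 islet endocrine genes were higher in POKO vs. ob/ob.

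After quantile normalization several of the 9 genes varied together from array to array, also within the genotypes. These correlations are over 12 arrays that share slides and normalization and are given without a test. Reg2 and Reg3b had a Pearson r of 0.91, and 0.96 after the mean of each genotype was subtracted. For Reg2 and Reg3a r was 0.85 and 0.96, and for Reg3a and Reg3g it was 0.27 over all arrays but 0.89 within genotypes. Reg3d had an r within genotypes of 0.36 to 0.58 with the other Reg genes. The values of Reg1 and Reg2 are set by rank among the brightest probes, so that their r depends on the normalization. Before it, Reg2 read 199140, 198360 and 192470 units on the PPARg2KO arrays, while Reg3b read 110930, 82519 and 121170 units. The low Reg2 value of the second PPARg2KO array was thus seen only after normalization. Tff1 and Tff3 varied together (r of 0.91, and 0.87 within genotypes), whereas Tff2 did not vary with them within genotypes (r of -0.08 with Tff1 and 0.04 with Tff3). The families were not separate in this respect, since within genotypes Tff3 had an r of 0.68 with Reg3b and 0.66 with Reg2, and Tff1 had 0.59 with Reg3b.

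**Figure D3:**
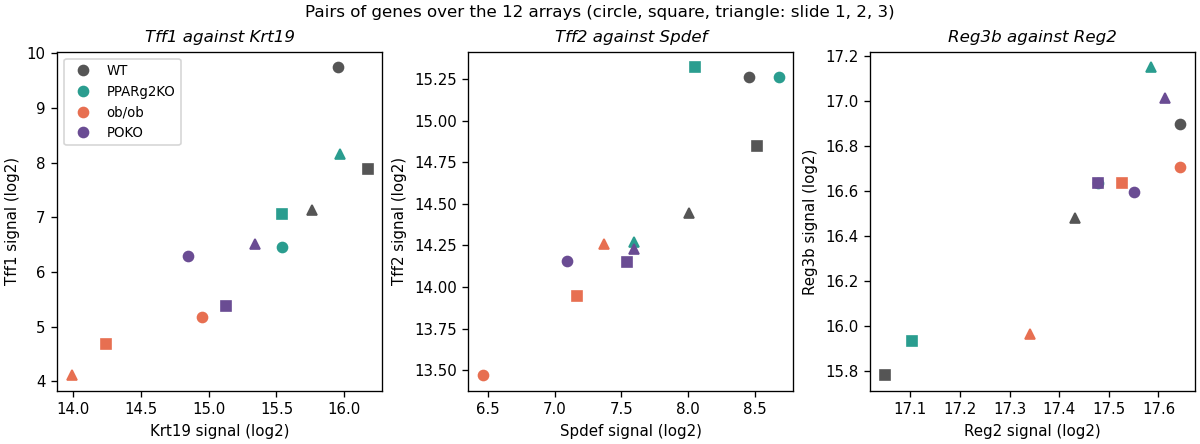
Normalized log2 signals of 3 pairs of genes on the 12 arrays, with colours for the genotypes and symbols for the slides. Tff1 is plotted against Krt19 (r of 0.89), Tff2 against Spdef (r of 0.91) and Reg3b against Reg2 (r of 0.91). The ob/ob arrays lie at the low end of the first 2 panels, while in the third the second WT and second PPARg2KO arrays do. Before normalization the second PPARg2KO array was not low for Reg2 (198360 units, against 159880 to 189260 in WT).

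Among 11691 other genes that were well above background on all arrays, those with the highest Pearson r over the 12 arrays were named for each of the 9 genes. So many candidates over so few arrays give high values for any gene. For Tff1 they were Hus1, Senp3 and Utp6 (r of 0.97, 0.96 and 0.95), for Tff3 Cluh and Eif2b4 among others (0.95 and 0.94), and for Tff2 Tbc1d25, Ptpn21 and Nipa2 (0.97, 0.97 and 0.96). For Reg3g they were Fam13a, Bcl2l12 and Zfp975 (0.93, 0.92 and 0.92), and for Reg3d Dclre1c, Pfpl and Btg2 (0.91, 0.83 and 0.83). For Reg3a they were Olfr1225, Cck and Rasgrp3 (0.85, 0.85 and 0.84), for Reg3b Chmp4b, 1700007K13Rik and Ctc1 (0.82, 0.81 and 0.80), for Reg2 Zfp985, Chmp4b and Icmt (0.85, 0.84 and 0.81), and for Reg1 Gm14391, Parvb and Hivep1 (0.87, 0.86 and 0.85). Chmp4b was named for both Reg2 and Reg3b.

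The wider pathway was followed in lists of receptors, mucus partners, inducing cytokines, transducers and other epithelial defence proteins, with 62 of 67 genes on the array. In ob/ob vs. WT 8 of the 62 passed the criteria, 5 higher and 3 lower, beside the 3.56% and 1.91% of all probes given above. None of the 62 did so in any of the other 5 comparisons by limma, where 25 (POKO vs. WT), 8 (PPARg2KO vs. WT), 6 (POKO vs. ob/ob), 16 (POKO vs. PPARg2KO) and 21 (ob/ob vs. PPARg2KO) had an unadjusted p under 0.05.

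Among the receptors, Cxcr4, the chemokine receptor through which Tff2 is reported to signal, rose in ob/ob from 5.91 ± 0.45 to 7.39 ± 0.41 (log2 difference 1.48, adjusted p = 0.0241 by limma), and a further probe of the gene rose by 1.44. Egfr, an epithelial growth factor receptor, fell from 10.18 ± 0.30 to 8.80 ± 0.74 (-1.37, adjusted p = 0.0321 by limma), with 3 further probes at -0.41, -0.82 and -1.51. Lingo2, a receptor reported for Tff3, had 0 of 3 WT arrays and 2 of 3 ob/ob arrays well above background. It passed the criteria as higher in ob/ob (adjusted p = 0.0250 by limma). Its ob/ob mean of 3.10 is near the detection limit, so that no fold is given. With normexp the log2 difference was 0.07 (adjusted p = 0.0765 by limma). Ackr3, a further CXCL12 receptor, was at 8.94 ± 0.19 in ob/ob and 8.02 ± 0.52 in WT and did not pass (adjusted p = 0.0895 by limma). Extl3, the proposed Reg receptor, was at 10.25 ± 0.32 and 10.61 ± 0.08 (adjusted p = 0.134 by limma). Reg4, the Reg gene outside the cluster, was well above background on 0 of the 12 arrays.

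Of 13 mucus and gastric partners on the array, 2 fell in ob/ob and none rose, with 5 of 13 higher and a median log2 difference of -0.06. Muc13 (1.38, adjusted p = 0.0881 by limma) and Muc4 (1.23, adjusted p = 0.172), which are membrane mucins, were higher in ob/ob without passing. Muc5ac, the gel-forming mucin stored with Tff1, went from 5.80 ± 0.19 in WT to 4.64 ± 0.49 (log2 difference -1.16, adjusted p = 0.0309 by limma), and its further probe was at -0.75. Spdef, a transcription factor of mucus-secreting cells, went from 8.33 ± 0.28 to 7.00 ± 0.48 (-1.33, adjusted p = 0.0358 by limma), and with the slide as a block its adjusted p was 0.0515. None of the 16 genes for inducing cytokines and their receptors passed the criteria in ob/ob vs. WT, where 8 had an unadjusted p under 0.05.

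Of 11 STAT3 and NF-kB transducers 2 rose in ob/ob and none fell, among them Cebpd, an acute-phase transcription factor, by 1.26 (adjusted p = 0.0233 by limma). Stat3 itself was at 12.34 ± 0.21 in WT and at 12.61 ± 0.05 in ob/ob (adjusted p = 0.151 by limma), and Socs3, its feedback inhibitor, was at 12.11 ± 0.44 and 13.00 ± 0.13 (adjusted p = 0.0629 by limma). Of 15 other epithelial defence and acute-phase genes 1 passed the criteria: Pigr, which carries IgA across epithelia, rose by 2.17 in ob/ob (adjusted p = 0.0192 by limma). In POKO, S100a9 and S100a8, which form the neutrophil protein calprotectin, were at 9.12 to 12.71 and at 5.64 to 9.20, above the 2.27 to 4.34 and 2.01 to 2.46 of WT, but they did not pass the criteria (adjusted p = 0.0745 and 0.121 by limma).

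Without the second WT array all 8 calls were lost. With normexp Egfr, Cebpd and Pigr kept their calls and the others did not. Cxcr4 was then at 0.52, Muc5ac at -0.20 and Spdef at -0.67, which is under the fold criterion. Muc5ac was at -0.93 with 75th percentile scaling, also under it. Pigr was lost without the second WT or second ob/ob array (log2 difference 1.88 or more over the 12 fits), whereas Spdef kept its call in 4 of the 12 fits and Egfr in 5.

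**Figure D4:**
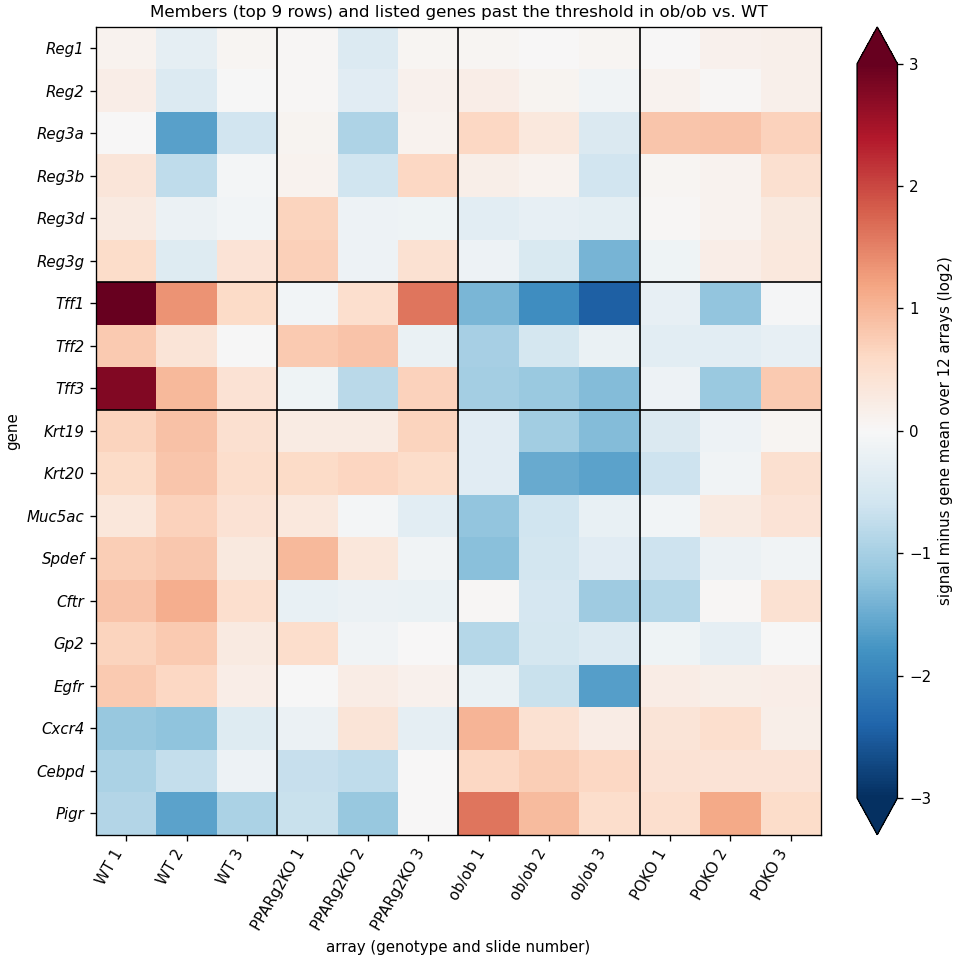
Normalized log2 signal minus the gene's mean over the 12 arrays, for the 9 Reg and trefoil genes (top rows) and for listed genes that passed the criteria between ob/ob and WT. Rows are genes, columns are arrays, red is above and blue below the mean, and colours stop at 3 on either side. The ob/ob columns are blue for Tff1 and Tff3 and, in the lower block, for Krt19, Krt20, Muc5ac and Spdef, and red for Cxcr4, Cebpd and Pigr.

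Markers of the other cell types that an islet preparation can hold were set beside the Reg and trefoil values. All 24 measured acinar genes were well above background on all 12 arrays. Their summed signal ran from 22.06 to 22.17 in WT, 22.00 to 22.19 in PPARg2KO, 21.87 to 22.11 in ob/ob and 22.07 to 22.14 in POKO, so that all genotypes overlapped. The sum rests on the brightest probes, whose set of values quantile normalization makes the same on every array. The overlap therefore says little of the acinar share. In ob/ob vs. WT 8 of the 24 genes were higher, with a median log2 difference of -0.17. Of these genes 1 passed the criteria in ob/ob vs. WT: Gp2, the main glycoprotein of zymogen granules, fell by 1.17 (adjusted p = 0.0195 by limma). The acinar transcription factor Ptf1a was lower by 1.82 and just missed (adjusted p = 0.0503 by limma). The Reg genes were thus read from RNA in which acinar genes were present on every array, and the part of acinar RNA in their levels was not tested.

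Of 14 measured duct markers 2 fell in ob/ob vs. WT and none rose, with a median log2 difference of -0.46 and 12 of 14 lower. An unadjusted p under 0.05 was found for 9 of the 14, beside 31.1% of all probes, and 2 of these were higher in ob/ob, Spp1 (osteopontin, 0.72) and the keratin Krt7 (0.54). The summed signal of 13 of them ran from 18.55 to 18.63 in WT, 18.44 to 18.67 in PPARg2KO, 18.38 to 18.52 in POKO and 17.84 to 18.51 in ob/ob. Within ob/ob it was lowest on the third array, where Tff1 was also lowest and Tff2 was highest. Tff3 was near the detection limit on the ob/ob arrays, so that nothing is read from its order among them. Krt19, a duct keratin, fell from 15.96 ± 0.21 to 14.39 ± 0.50 (log2 difference -1.57, adjusted p = 0.0173 by limma). Cftr, the chloride channel of ducts, went from 6.24 ± 0.29 to 4.92 ± 0.55 (-1.33, adjusted p = 0.0436 by limma), and with the slide as a block its adjusted p was 0.0659. With normexp the log2 difference was -0.27 for Cftr and -1.48 for Krt19. Slc4a4, a bicarbonate carrier, was the only duct marker that was well above background on no array of a genotype, in ob/ob.

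Of 8 measured gastric and intestinal markers 1 passed the criteria: Krt20, an epithelial keratin, fell by 1.80 (adjusted p = 0.0250 by limma). The intestinal regulator Cdx2 and the intestinal cadherin Cdh17 were not well above background on any of the 12 arrays. The summed signal of the 8 was 11.96 to 12.11 in WT, 11.88 to 12.14 in PPARg2KO, 11.51 to 11.91 in ob/ob and 11.69 to 12.02 in POKO. Over the 12 arrays Tff1 had an r of 0.89 with Krt19 and 0.80 with Krt20, and 0.47 and 0.23 within genotypes, while Tff2 had an r of 0.91 with Spdef, and 0.79 within genotypes. Of the epithelial genes paired with them, the acinar factor Ptf1a had the highest r within genotypes with Tff1 and with Tff3. For Tff1 it was 0.67 (0.82 over all arrays), and for Tff3, which is near the detection limit, 0.73 (0.89 over all arrays). Krt19 and Tff3 had an r of 0.73 over all arrays and 0.34 within genotypes. Other pairs went the opposite way within genotypes: r was -0.56 for Tff1 and Muc5ac, -0.34 for Tff1 and Spdef, and -0.55 for Tff2 and Krt19. These pairs were picked after their values were seen. Without the second WT array none of the duct, acinar, gastric and intestinal calls held, and over the 12 fits that leave out an array the difference of Krt19 ran from -1.86 to -1.37 and that of Krt20 from -2.21 to -1.57. The part of duct or other epithelial RNA in the trefoil levels was not tested.

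Several lymphocyte markers moved the other way. In ob/ob vs. WT 5 of 7 T cell genes (Cd3d, Cd3g, Cd2, Cd8a and Lck) and 3 of 5 B cell genes (Cd79b and Ms4a1 among them) rose, Cd3d by 6.42 and Cd79b by 5.70 (adjusted p = 0.0309 and 0.0371 by limma). For Cd3g, Cd2, Cd8a and Ms4a1 no WT array was well above background, so that no fold is given for them. On the ob/ob arrays Cd2 was at 6.37 ± 0.62 and Ms4a1 at 8.11 ± 1.38 (adjusted p = 0.0345 and 0.0433 by limma for ob/ob vs. WT). The other T cell genes were not higher: Cd3e was at 8.22 ± 0.13 on the WT arrays and 6.74 ± 0.69 on the ob/ob arrays, which did not pass (adjusted p = 0.118 by limma), and Cd4 differed by -0.11. With the slide as a block Cd3g, Cd8a and Ms4a1 did not pass (adjusted p = 0.0696, 0.0548 and 0.0584 by limma), and with normexp Lck alone of the 7 named genes had an adjusted p under 0.05 (0.0418). All these calls were lost without the second WT array, and of the 12 fits that leave out an array Cd3d and Lck passed in 7, Cd8a in 6, Cd2 in 5, Cd79b and Ms4a1 in 4 and Cd3g in 3. Their summed signals also varied within genotypes: the B cell sum ran from 5.91 to 11.45 in PPARg2KO, beside 6.40 to 6.69 in WT, 10.28 to 11.88 in ob/ob and 10.15 to 11.75 in POKO, and the T cell sum ran from 8.06 to 10.44, 8.76 to 8.85, 9.90 to 11.32 and 9.20 to 10.79 in the same order. On the second PPARg2KO array, whose B cell sum of 11.45 lay within the range of the obese arrays, Tff1 was at 7.06 (7.13 to 9.74 in WT), Tff2 at 15.32 (14.45 to 15.26 in WT) and Tff3 at 3.88, not well above background (5.12 to 7.47 in WT). Reg1 had its lowest normalized value of the 12 arrays there, 17.07. Its signal before normalization, 194790 units, was however above those of the WT arrays (176580 to 185940 units). None of 5 macrophage and 7 fibroblast and stellate genes passed the criteria in ob/ob vs. WT, where 2 and 1 had an unadjusted p under 0.05, and both sums had their widest range in ob/ob (10.72 to 12.78 and 12.75 to 14.78). Of the 9 endocrine markers 1 passed the criteria as higher, the prohormone convertase Pcsk1 (log2 difference 1.72, adjusted p = 0.0407 by limma), in 4 of the 12 fits that leave out an array. In ob/ob vs. WT 8 of the 9 were higher, with a median log2 difference of 0.40. Their sum was 20.37 to 20.51 in ob/ob, above all other arrays: 19.81 to 20.35 in WT, 20.09 to 20.31 in PPARg2KO and 20.13 to 20.26 in POKO. This sum also rests on very bright probes. The part of lymphocyte or endocrine RNA in the Reg and trefoil differences was not tested.

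**Figure D5:**
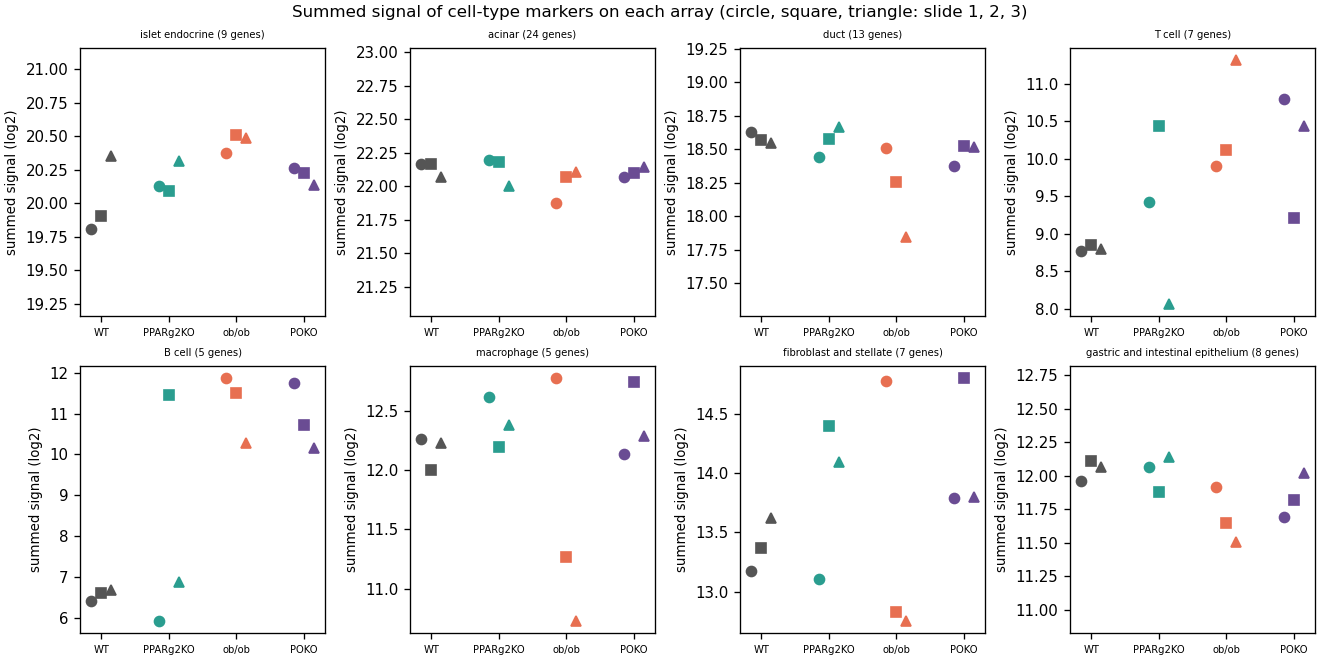
Log2 of the summed normalized signal of 8 marker lists on each array, by genotype. The acinar sum rests on the brightest probes, whose set of values quantile normalization makes the same on every array. The acinar sums of the 4 genotypes overlap between 21.87 and 22.19, the duct sum is lowest on the third ob/ob array at 17.84, and the B cell sum lies between 5.91 and 6.89 on the WT arrays and the first and the third PPARg2KO arrays and at 10.15 or more on the other arrays. Panels differ in their vertical scale.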

How the data were processed

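The 12 arrays (3 each of WT, PPARg2KO, ob/ob and POKO, grouped by the labels) are Agilent 4x44K arrays in 1 colour, each of a pool of islets of 3 to 4 mice. The age is 5 weeks in the methods of the study and 4 weeks in the labels. Per the file headers, the deposited intensities were read and background-subtracted by Agilent Feature Extraction 10.1.1.1, without normalization between arrays. The authors also deposited log2 values, which correlated with the quantile-normalized scanner values at 0.9997 on each array. They were used as an alternative.

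Here gProcessedSignal of the 43379 non-control spots was quantile-normalized and put on the log2 scale in R 4.3.3, 919 outlier spots were left out (none of the members), and spots of a probe were averaged. limma 3.58.1 (lmFit, eBayes) with genotype as factor was run on 41174 probes, with Benjamini-Hochberg over all of them. A probe was called at an adjusted p of at most 0.05 and an absolute log2 difference of at least 1. RefSeq accessions named 25097 probes, and a gene is its brightest probe. Named are all members, list genes past the criteria in any comparison, Extl3, Cxcr4, Ackr3, Stat3 and Socs3, and per member the 3 genes of highest r. Further list genes that did not pass are named outside this rule, among them S100a8, S100a9, Muc4, Muc13, Ptf1a, Spp1, Krt7, Cd3e and Cd4. The members and lists were chosen with earlier results of these data known. The script was tested on simulated data.

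Array number limits the precision. Replicate numbers are slides: same-slide arrays of different genotypes deviated together at r of -0.13 to 0.18 (median 0.03), and other pairs at -0.19 to 0.16. Alternatives were 75th percentile scaling, normexp (on median signals, chosen after seeing the files, since they hold no mean signals), a filter on dim probes, outliers kept, 2 genotypes per fit, the slide as a block, array weights, the authors' values, no fold criterion, the mean of a gene's probes, and each array left out. The list genes Muc2, Muc6, Lif, Il10rb and Nfkb1 were not matched by accession. A few named genes are not reported here.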

Additional observations from a re-analysis of the deposited data

How the results depend on the processing

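The count of members called in ob/ob vs. WT was 2, also 2 with the slide as a replicate block, 1 (Tff1) with 75th percentile scaling, 0 with normexp, 0 with only both genotypes in the fit, and between 0 and 3 when 1 array was left out (3 with Tff2, without the third WT array). Fewer samples in the fit leave fewer degrees of freedom. Normexp adds 50 to every signal and shrinks dim probes: Tff1 in ob/ob vs. WT was then at -1.20 and Tff3 at -0.42. When 1 array was left out the difference was -4.16 to -2.84 for Tff1 and -3.01 to -1.83 for Tff3 in ob/ob vs. WT, and 1.08 to 1.90 for Reg3a in POKO vs. WT. In POKO vs. WT 2 members were called with array weights, and in ob/ob vs. PPARg2KO 0 to 1 when 1 array was left out. With 75th percentile scaling the median over all probes for ob/ob minus WT moved from -0.08 to -0.19.

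Of the pathway genes, 8 were called in ob/ob vs. WT, also 8 with the replicate block, 3 with normexp, 1 with only both genotypes, 17 with array weights and 0 to 13 when 1 array was left out. In POKO vs. WT the count of 0 became 2 with 75th percentile scaling, 3 with the filter on dim probes, 3 with only both genotypes, 15 with array weights, 1 with the mean of a gene's probes and 0 to 5 when 1 array was left out. In ob/ob vs. PPARg2KO it became 1 with the filter, 3 with array weights and 0 to 5, in POKO vs. ob/ob 1 with array weights, and in POKO vs. PPARg2KO 0 to 2 when 1 array was left out. The cause of these changes was not tested. No difference of a called member reversed.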
